A study of Mus musculus with 9 samples.

Results

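The genes described here are *Man1a* and 9 further enzymes that trim and branch N-glycans, 10 of the 54347 genes in the table, followed across 3 mouse myeloid cell lines. *Man1a* was chosen on its difference between Hox-URE and Hox-WT, so its values are given as a description, with no test. The other 9 were chosen by family and pathway, with earlier results of these data known. They are the *Man1a* paralogs *Man1a2*, *Man1b1* and *Man1c1*, the later mannosidases *Man2a1* and *Man2a2*, and the branching enzymes *Mgat1*, *Mgat2*, *Mgat4a* and *Mgat5*. All 10 were found once in the table and passed the filter on low counts. Messenger RNA was sequenced from 3 libraries of each line. Hox-WT (genotype WT) and Hox-URE (genotype UREd/d) are progenitor lines made from bone marrow cells of 1 mouse each, immortalized with a Hoxb8 fusion protein that needs estradiol. What Hox-URE lacks is the URE (upstream regulatory element), which enhances *Spi1*, and *Spi1* encodes the transcription factor PU.1. URE-AML, also UREd/d, is a line grown from the leukemic blasts of 1 mouse with that deletion. Per the labels all 3 lines were kept in 20% FCS with estradiol and 10 ng/ml each of IL-3, IL-6 and SCF. Each genotype and stage is 1 line, so genotype, mouse and line cannot be told apart, and the spread is that between libraries, which the labels do not tie to separate cultures.

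N-glycans are sugar trees that are built on a lipid, moved as a block onto asparagines of new proteins in the endoplasmic reticulum (ER), and then remodelled. Class I mannosidases (*Man1a*, *Man1a2* and *Man1c1* in the Golgi, *Man1b1* also linked to disposal of misfolded proteins) cut mannoses from the block. *Mgat1* then adds the first N-acetylglucosamine branch, *Man2a1* and *Man2a2* remove further mannoses, and *Mgat2* adds the second branch, which opens the way to complex glycans. *Mgat4a* and *Mgat5* add additional branches, of which those made by *Mgat5* are extended with the poly-LacNAc chains that galectins bind.

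Total counts were 20331064 to 28588718 per library, and every enzyme had between 191 and 9496 counts in each library, far above the floor of 3 counts. *Spi1* stood at 110, 101 and 96.5 CPM in Hox-WT, at 1, 1 and 0 counts in Hox-URE, and at 2.50, 5.52 and 6.35 CPM in URE-AML (CPM are counts scaled to the library total and to a TMM factor for composition). The lines differed in other ways. *Hoxb8* had 1725 to 3481 counts in the Hox lines and 0 in URE-AML, and 4 Y-linked genes summed to 2732 to 4092 counts in Hox-URE and at most 2 in the other lines. *Ptprc*, the pan-leukocyte gene of CD45, had 152 to 170 CPM in Hox-WT, then 0 in Hox-URE and at most 0.0429 in URE-AML. The 7 progenitor and granulocyte precursor markers, *Ptprc* among them, summed to 6158 to 9573 CPM in Hox-WT, against 2818 to 4207 in Hox-URE, with URE-AML at 7735 to 17440, with 7, 6 and 6 of them over 1 CPM. Within that sum *Mpo*, the myeloperoxidase gene, had 3291 to 5947, 2.15 to 10.2 and 174 to 212 CPM in that order of lines, and *Kit*, the receptor of SCF, had 162 to 192, 35.4 to 50.7 and 92.7 to 99.6, so the higher sum of URE-AML was carried by other members. The 6 mast cell and basophil markers summed to 483 to 838, 1612 to 5889 and 31.4 to 62.7 CPM, with 4, 5 and 3 of them over 1 CPM and *Fcer1a* at 0 in both Hox lines. The 6 neutrophil markers summed to 51.8 to 102, 110.1 to 174 and 4148 to 9059 CPM, with 4, 1 and 6 over 1 CPM and *S100a9* and *Ltf* at 0 in Hox-URE. Monocyte and macrophage markers summed to 334 to 363, 5.86 to 8.17 and 111 to 318 CPM, and lymphoid markers to 42.5 to 52.7, 43.0 to 45.8 and 0.606 to 1.29. The highest sums of erythroid, megakaryocyte and stromal markers were 17.1, 46.4 and 76.1 CPM. These shifts moved with every difference between lines below, and their part in it was not tested. In bulk RNA fewer cells of a kind and less RNA per cell cannot be told apart.

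*Man1a* (ENSMUSG00000003746, chr10:53904785-54076609 of GRCm38, minus strand) spanned the widest range of levels of the 10, as its choice implies. In Hox-WT its libraries held 7.16, 7.03 and 7.71 CPM (191, 197 and 223 counts). In Hox-URE they held 346, 351 and 316 CPM (9496, 8464 and 6195 counts). In URE-AML they held 71.0, 82.8 and 61.6 CPM (1759, 1741 and 1437 counts). No library of any line overlapped with another line, and URE-AML lay between the Hox lines. The means were 7.30 ± 0.36 CPM in Hox-WT, followed by 338 ± 18.5 in Hox-URE, and URE-AML had 71.8 ± 10.6 (SD, n = 3). The fitted log2 fold change, the kind of value that the gene was chosen on, was 5.53 ± 0.13 (SE) for Hox-URE against Hox-WT, or 46.2-fold. It was 3.30 ± 0.12 for URE-AML against Hox-WT (9.83-fold higher) and -2.23 ± 0.11 for URE-AML against Hox-URE (4.70-fold lower), and these contrasts share their Hox-WT or Hox-URE libraries with the one that chose it. Among 11685 tested protein-coding genes with an annotated length, the level of *Man1a* per kb of transcript exceeded that of 22.2% of genes in Hox-WT, of 89.4% in Hox-URE, and in the leukemic line of 61.5%.

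**Figure D1:**
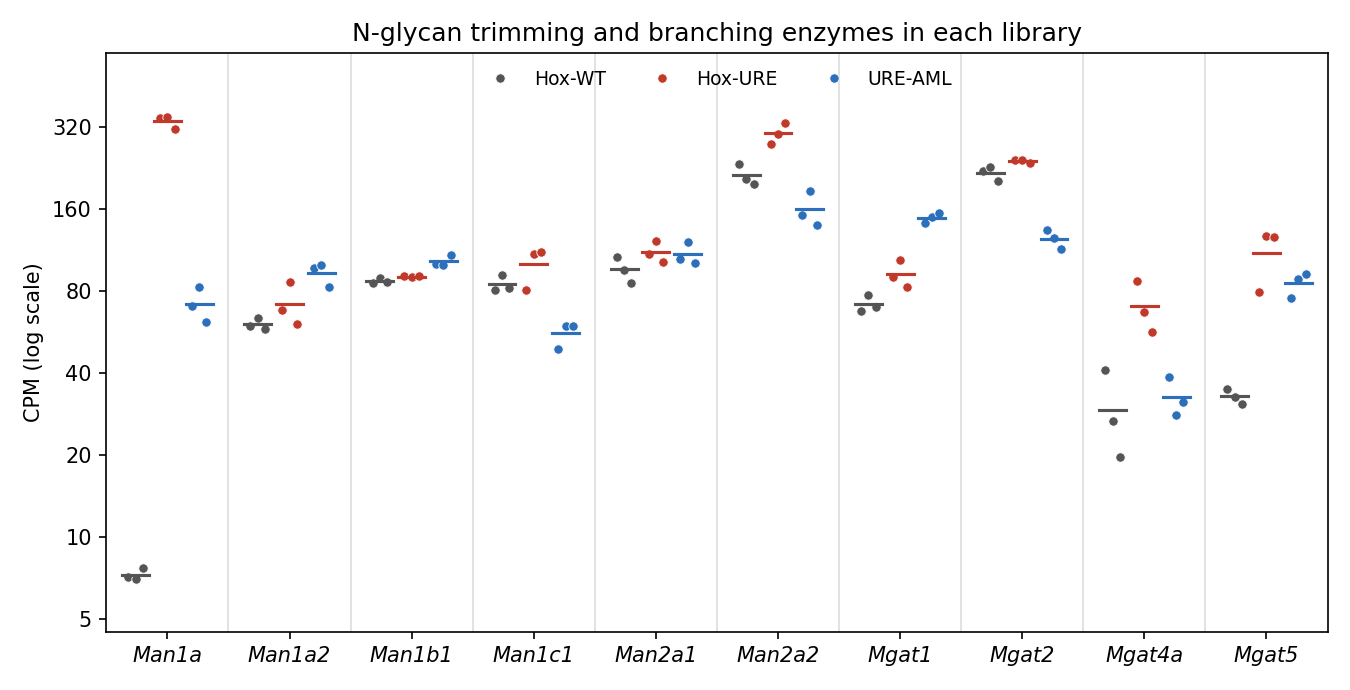
Level of each enzyme in CPM on a log axis, with 1 point per library and a bar at the mean of the 3 libraries of a line. *Man1a* is lowest in Hox-WT at 7.03 to 7.71 CPM, while *Man1b1* is at 86.0 to 109 CPM over all 9 libraries.

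RefSeq promoter windows, 250 bases before to 50 after a start, held 8 of the 10 genes (GRCm38.p6), all but *Man1a2* and *Man2a2*. The parts upstream of annotated exons are given for *Man1a*, *Mgat4a* and *Mgat5*, the enzymes with the largest rises in Hox-URE, and for *Mgat2*, which did not pass the test there and fell in URE-AML. All run 5′ to 3′ on the strand of the gene, and capitals mark GGAA on either strand (TTCC when read along the sequence), the core that ETS factors such as PU.1 bind. The *Man1a* stretch ends where a *Man1a* transcript of GENCODE M21 begins and lies in the first intron of a transcript that starts further upstream.
Man1a chr10:54075797-54075987, minus strand: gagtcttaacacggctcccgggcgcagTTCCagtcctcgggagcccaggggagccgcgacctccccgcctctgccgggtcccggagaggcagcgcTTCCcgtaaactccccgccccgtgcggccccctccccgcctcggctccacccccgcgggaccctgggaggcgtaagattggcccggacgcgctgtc
Mgat4a chr1:37541017-37541266, minus strand: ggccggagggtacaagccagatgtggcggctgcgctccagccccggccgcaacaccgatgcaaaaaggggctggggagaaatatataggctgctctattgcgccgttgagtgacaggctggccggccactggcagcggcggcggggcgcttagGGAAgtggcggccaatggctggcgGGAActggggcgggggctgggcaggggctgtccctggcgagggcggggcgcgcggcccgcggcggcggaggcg
Mgat5 chr1:127204736-127204985, plus strand: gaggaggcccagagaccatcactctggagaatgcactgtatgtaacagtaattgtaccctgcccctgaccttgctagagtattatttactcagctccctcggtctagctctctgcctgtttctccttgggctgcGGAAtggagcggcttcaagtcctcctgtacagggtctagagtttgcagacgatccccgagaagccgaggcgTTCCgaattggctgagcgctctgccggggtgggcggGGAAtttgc
Mgat2 chr12:69183908-69184156, plus strand: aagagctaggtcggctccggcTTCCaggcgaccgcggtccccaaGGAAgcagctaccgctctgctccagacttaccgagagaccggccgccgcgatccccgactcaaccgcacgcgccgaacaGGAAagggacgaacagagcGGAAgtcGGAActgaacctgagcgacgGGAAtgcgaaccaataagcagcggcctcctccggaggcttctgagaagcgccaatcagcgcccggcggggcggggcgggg
Over the whole 300-base windows GGAA occurred 3 times for *Man1a*, 2 times for the start of *Mgat4a* shown above, 5 times for *Mgat5* and 6 times for *Mgat2*. *Mgat4a* has a further start (chr1:37536355-37536654, minus strand), whose window held GGAA 8 times, the most of the 11 windows of the 8 genes, with 36.0% G and C and 2 CpG. The 4 letters were found on either strand in 96.0% of 32851 promoters, with a median of 3 matches. A fuller PU.1 string, GAGGAAGT, was in 3.20% of promoters and in none of the 11 windows. The RUNX string TGTGGT was in 16.8% of promoters and in 1 of these windows, the third start of *Mgat1*. The *Man1a* window was 72.7% G and C with 38 CpG, and that of *Mgat5* 58.0% with 18 CpG. A match describes the letters only.

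Progenitors without and with the enhancer were compared first, as Hox-URE against Hox-WT. *Mgat5* and *Mgat4a* rose, and the other 7 did not pass the thresholds (adjusted p under 0.05, fold over 1.5). These were 2 of 9 enzymes higher (22.2%), where 21.3% of all 13082 tested genes were higher, and 0 of 9 lower, where 15.9% of all genes were lower. The share higher was close to that over all genes. At an unadjusted p under 0.05 edgeR gave 4 of 9, all with a positive log2 fold change, and DESeq2 called 2 higher and 0 lower. At an adjusted p under 0.05 with no fold threshold, edgeR called 4 of 9, and 6936 of all 13082 tested genes. All 9 log2 fold changes were above 0, from 0.054 (*Man1b1*, which was at -0.054 when scaled by library size only) to 1.75, with a median of 0.25, where the median over all genes was 0.00025 and that of absolute values 0.49. The shared sign depends on which enzymes were chosen, since the branching enzyme *Mgat4b*, outside the 9, was at -0.41.

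Between URE-AML and Hox-WT, which compares leukemic with wild-type cells, *Mgat5*, *Mgat1* and *Man1a2* rose and *Mgat2* and *Man1c1* fell. This was 3 of 9 enzymes higher (33.3%), with 23.0% of all genes higher, and 2 of 9 lower (22.2%), with 20.2% of all genes lower. The median log2 fold change of the 9 was 0.19 and that of all genes 0.0016. Between URE-AML and Hox-URE, the leukemic line and the progenitor line with the same deletion, *Mgat1* rose and *Mgat4a*, *Mgat2*, *Man2a2* and *Man1c1* fell. This was 1 of 9 higher (11.1%), with 20.3% of all genes higher, and 4 of 9 lower (44.4%), with 22.4% of all genes lower. The median of the 9 was -0.37. The comparisons share lines, so their results are not independent of each other.

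**Figure D2:**
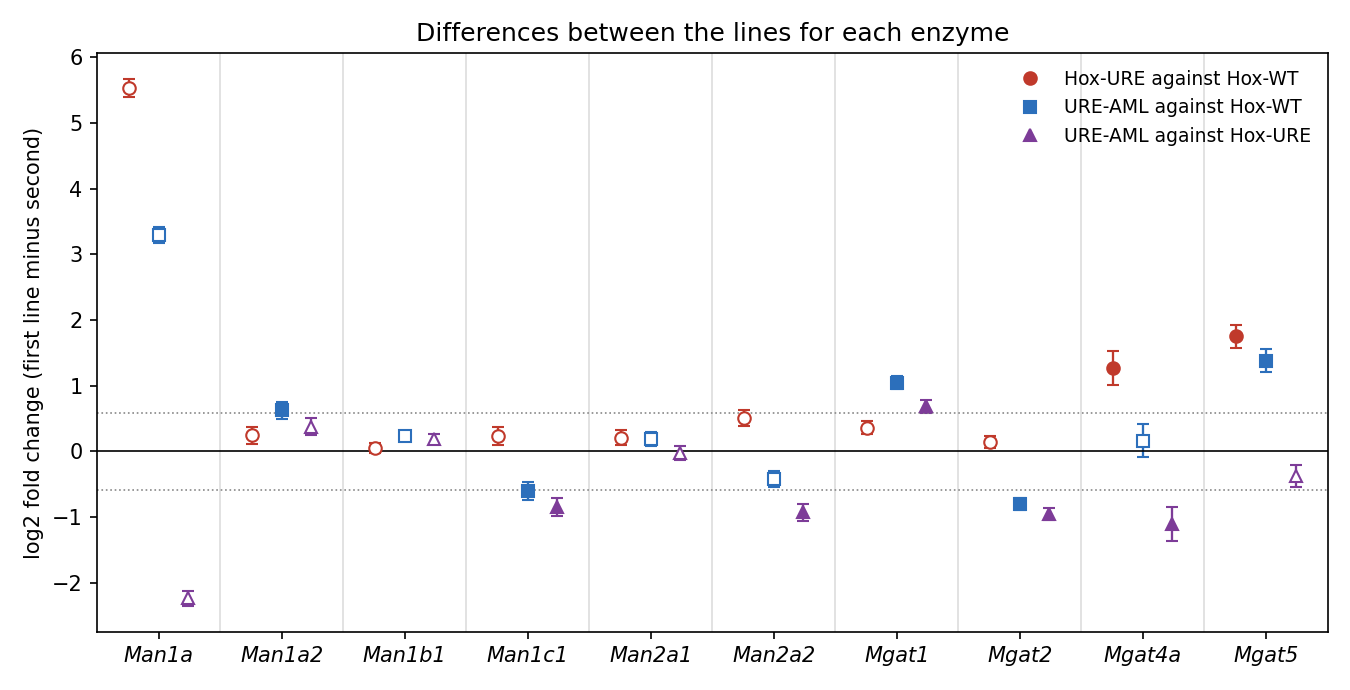
Log2 fold change of each enzyme from the edgeR fit (first line minus second) with its SE, and dotted lines at a fold change of 1.5. Filled symbols passed the test, and *Man1a* is open because it was chosen on these data. *Man1a* ranges from -2.23 to 5.53 and the other enzymes from -1.11 to 1.75.

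Of the class I paralogs, *Man1a2* (chr3:100562208-100685503, minus strand) had 59.8, 63.8 and 58.0 CPM in Hox-WT, then 68.3, 86.5 and 60.5 in Hox-URE and 97.4, 99.7 and 82.8 in URE-AML. Hox-URE overlapped with both other lines, and URE-AML lay above Hox-WT. The log2 fold change was 0.62 ± 0.13 for URE-AML against Hox-WT (SE, edgeR adjusted p = 0.00236), or 1.54-fold, which is close to the threshold. Without Hox-WT library 3 it was 0.58 and without URE-AML library 2 it was 0.58, both under a fold of 1.5. For Hox-URE against Hox-WT it was 0.25 ± 0.13 (edgeR adjusted p = 0.144).

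*Man1c1* (chr4:134561690-134704290, minus strand) went the other way. It had 81.1, 92.3 and 82.3 CPM in Hox-WT, against 80.9, 109.8 and 112 in Hox-URE and 49.1, 59.8 and 59.7 in URE-AML. URE-AML lay below both Hox lines, which overlapped with each other. It fell by 0.84 ± 0.14 on the log2 scale from Hox-URE to URE-AML (SE, edgeR adjusted p = 0.000427). The fall of 0.60 ± 0.14 from Hox-WT (adjusted p = 0.00343) was 1.52-fold, and it was under the fold threshold without Hox-WT library 2 (-0.54) or URE-AML library 1 (-0.51). *Man1b1* (chr2:25332338-25352212, plus strand) had the narrowest range over single libraries of the 10, at 86.0 to 89.8 CPM in Hox-WT, followed by 90.1 to 91.2 in Hox-URE, with URE-AML at 100.2 to 109. Its largest log2 fold change was 0.24 ± 0.07 for URE-AML against Hox-WT (edgeR adjusted p = 0.016), under the fold threshold.

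Per kb of transcript the 4 class I genes summed to 49.0 to 52.8 CPM per kb in Hox-WT, with 117 to 126 in Hox-URE, and URE-AML had 63.3 to 68.0. *Man1a* made up 2.59 to 3.05% of that sum in Hox-WT, then 52.6 to 57.4% in Hox-URE, with URE-AML at 18.7 to 23.7%. Without *Man1a* the sums were 47.6 to 51.5, 50.0 to 58.1 and 49.5 to 52.1 CPM per kb, which overlapped between all lines. *Man1b1* held the largest share in Hox-WT, 46.2 ± 0.875% (SD, n = 3), and in URE-AML, 42.3 ± 3.02%, and held 20.1 ± 0.988% in Hox-URE. The ratio of *Man1a* to *Man1a2* counts within a library, which no scaling between libraries can change, was 0.110 to 0.133 in Hox-WT, against 4.05 to 5.23 in Hox-URE, and URE-AML had 0.729 to 0.830.

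**Figure D3:**
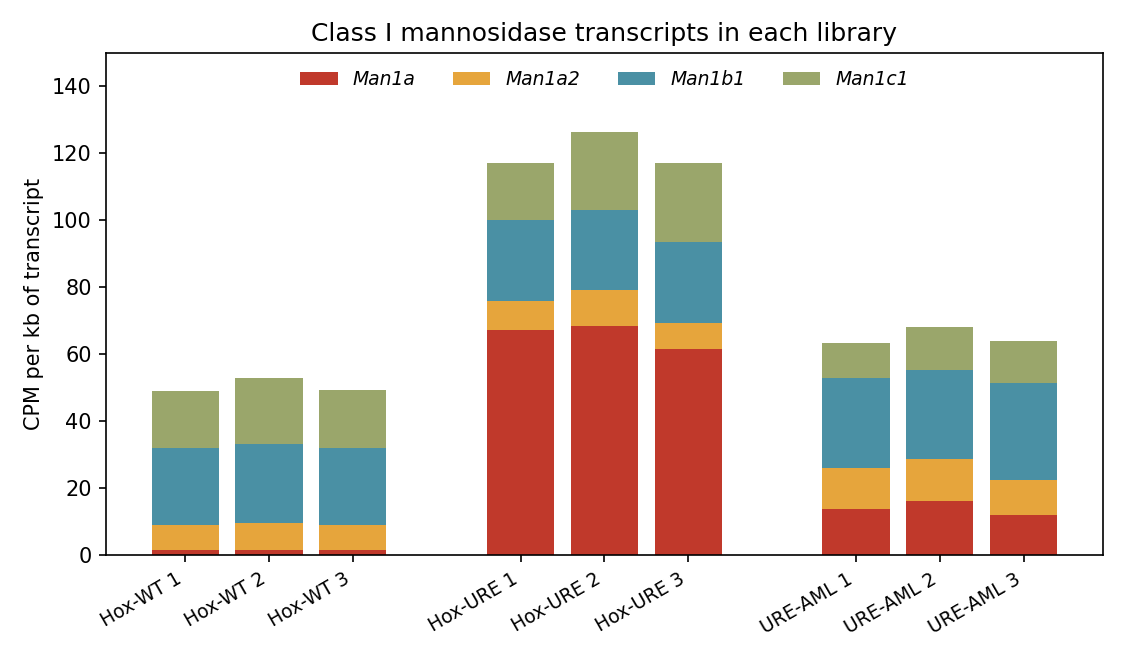
Stacked bars of CPM per kb of transcript for the 4 class I mannosidases in each library. The part other than *Man1a* stays between 47.6 and 58.1 CPM per kb in all 9 libraries, and the *Man1a* part is 2.59 to 3.05% in Hox-WT, followed by 52.6 to 57.4% in Hox-URE, with URE-AML at 18.7 to 23.7%.

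The coding sequence of *Man1a* was 65.8% identical to that of *Man1a2* over 1885 aligned bases, 65.7% to *Man1c1* and 60.2% to *Man1b1*. None of the 9666 different 31-base words in *Man1a* transcripts occurred in another gene's transcripts. For the other members at most 0.978% of such words were shared, the highest share being that of *Man2a2*. The antisense and promoter RNAs that overlap *Man1a*, *Gm16998* and *Gm47917*, had at most 3 and 0 counts.

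Of the class II mannosidases, *Man2a2* (chr7:80349097-80371375, minus strand) had 235, 207 and 199 CPM in Hox-WT, with 278, 304 and 332 in Hox-URE and 153, 187 and 140.3 in URE-AML. The 3 lines did not overlap, with Hox-URE highest and URE-AML lowest. It fell by 0.93 ± 0.12 on the log2 scale from Hox-URE to URE-AML (SE, edgeR adjusted p = 0.000115), or 1.90-fold. Against Hox-WT it was 0.51 ± 0.12 in Hox-URE (edgeR adjusted p = 0.00567) and -0.42 ± 0.12 in URE-AML (adjusted p = 0.0144), both under the fold threshold. *Man2a2* overlaps *Hddc3* on the opposite strand, which had up to 986 counts, and whether quantification used the strand is not given in the sources used here. *Man2a1* (chr17:64600736-64755110, plus strand), the other enzyme of this step, had 86.2 to 107 CPM in Hox-WT, then 102 to 122 in Hox-URE, and URE-AML had 102 to 122. The 3 ranges overlapped, and its log2 fold changes were 0.21 ± 0.11, 0.19 ± 0.11 and -0.024 ± 0.11 in the order of comparisons above (edgeR adjusted p = 0.137, 0.177 and 0.874). The ratio of *Man2a2* to *Man2a1* counts was 2.17 to 2.31 in Hox-WT, against 2.48 to 3.25 in Hox-URE, with URE-AML at 1.38 to 1.54.

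*Mgat1* and *Mgat2*, which add the first and the second branch with the class II mannosidases acting in between, moved in opposite directions in URE-AML. *Mgat1* (chr11:49244191-49263030, plus strand) had 68.0, 77.6 and 70.3 CPM in Hox-WT, followed by 90.6, 104 and 83.1 in Hox-URE and 142, 149.6 and 155 in URE-AML. The lines did not overlap and URE-AML was highest. *Mgat1* rose by 1.05 ± 0.10 on the log2 scale from Hox-WT to URE-AML (SE, edgeR adjusted p = 9.68e-06), or 2.07-fold, and by 0.69 ± 0.10 from Hox-URE (adjusted p = 0.000199). Between the Hox lines it was 0.36 ± 0.10 (edgeR adjusted p = 0.011), under the fold threshold.

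*Mgat2* (chr12:69184157-69186770, plus strand) had 221, 229 and 203 CPM in Hox-WT, with 244, 243 and 236 in Hox-URE and 134, 126 and 114 in URE-AML. URE-AML lay well below the Hox lines. It fell by 0.80 ± 0.09 on the log2 scale from Hox-WT (SE, edgeR adjusted p = 2.64e-05) and by 0.95 ± 0.09 from Hox-URE (adjusted p = 8.55e-06). Between the Hox lines it was 0.15 ± 0.09 (edgeR adjusted p = 0.181). *Gm49383*, annotated on the opposite strand over *Mgat2*, had at most 274 counts, against 2640 to 6701 for *Mgat2*. Within libraries there were 2.89 to 3.26 *Mgat2* counts for each *Mgat1* count in Hox-WT, then 2.34 to 2.84 in Hox-URE, and URE-AML had 0.738 to 0.944.

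The branching enzymes *Mgat5* and *Mgat4a* were the 2 that rose from Hox-WT to Hox-URE. *Mgat5* (chr1:127205015-127488336, plus strand) had 35.0, 32.9 and 30.9 CPM in Hox-WT, against 79.6, 127 and 126 in Hox-URE and 75.9, 88.7 and 92.8 in URE-AML. Both URE lines lay above Hox-WT in every library and overlapped with each other, and Hox-URE library 1 stood below the other 2 of its line. The mast cell and basophil markers summed to 1612, 3523 and 5889 CPM in these 3 Hox-URE libraries. *Mgat4a*, described next, ran the other way over the same libraries (87.5, 67.5 and 56.6 CPM), and the part of these markers in either level was not tested. *Mgat5* rose by 1.75 ± 0.17 on the log2 scale in Hox-URE (SE, edgeR adjusted p = 1.89e-05), or 3.37-fold, and by 1.38 ± 0.17 in URE-AML (adjusted p = 6.58e-05), or 2.61-fold. The difference between the URE lines was -0.37 ± 0.17 (edgeR adjusted p = 0.081).

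*Mgat4a* (chr1:37439340-37541016, minus strand) had 41.3, 26.7 and 19.7 CPM in Hox-WT, followed by 87.5, 67.5 and 56.6 in Hox-URE and 38.8, 28.1 and 31.5 in URE-AML. Hox-URE lay above both other lines, which overlapped, and the Hox-WT libraries spread widest of all enzymes and lines, with a coefficient of variation of 37.7%. *Mgat4a* rose by 1.27 ± 0.26 on the log2 scale in Hox-URE (SE, edgeR adjusted p = 0.00213), or 2.41-fold. It fell by 1.11 ± 0.26 from Hox-URE to URE-AML (edgeR adjusted p = 0.00406) and was 0.17 ± 0.26 against Hox-WT (adjusted p = 0.609). The ratio of *Mgat5* to *Mgat2* counts was 0.144 to 0.158 in Hox-WT, with 0.326 to 0.535 in Hox-URE, with URE-AML at 0.565 to 0.812.

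**Figure D4:**
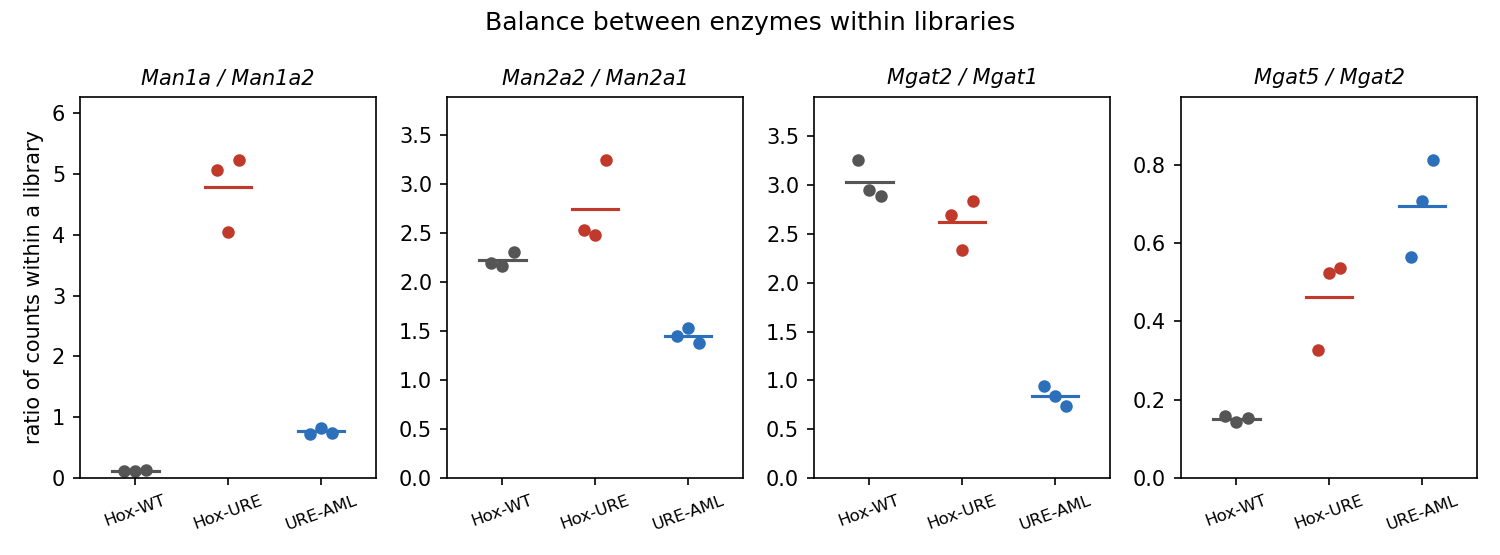
Ratios of counts between 2 enzymes within each library, with 1 point per library and a bar at the mean of a line, each panel on its own axis from 0. *Mgat2* to *Mgat1* is 2.34 to 3.26 in the Hox lines and 0.738 to 0.944 in URE-AML, and *Man1a* to *Man1a2* is highest in Hox-URE.

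Per kb of transcript, *Mgat2* ranked first of the 10 in Hox-WT (83.3 ± 5.18 CPM per kb, SD, n = 3) and *Man1a* last (1.42 ± 0.07). *Man2a2* followed *Mgat2* at 32.6 ± 2.91 CPM per kb, and the neighbours *Man1b1* and *Mgat1*, and *Mgat4a* and *Mgat5*, overlapped between libraries. In Hox-URE *Man1a* was second (65.7 ± 3.60), between *Mgat2* (92.2 ± 1.63) and *Man2a2* (46.5 ± 4.13), without overlap with either. In URE-AML *Mgat2* (47.7 ± 3.82) and *Mgat1* (47.3 ± 2.02) overlapped at the top, and *Man1a* (14.0 ± 2.06) overlapped with *Man2a1* above and *Man1c1* below it. Per kb of coding sequence *Man1a* stayed last in Hox-WT and second in Hox-URE, and *Mgat1* came before *Mgat2* in URE-AML.

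Over the 9 libraries the enzyme whose log2 CPM followed *Man1a* most closely was *Mgat5* (Pearson's r = 0.934), with *Mgat4a* next (0.780), while *Mgat2* had the lowest r (0.0505). Of all tested genes 358 had a higher r than *Mgat5*. With symbols of the forms Gm and digits, -ps and Rik left out, the 5 genes most like *Man1a* were *Arhgef28*, *Arap2*, *Syde2*, *Ccdc166* and *Plcxd2*. Their r was 0.999, 0.997, 0.997, 0.996 and 0.995. *Arhgef28* had 0.811 ± 0.0781 CPM in Hox-WT, then 43.2 ± 5.37 in Hox-URE, and URE-AML had 10.4 ± 1.22 (SD, n = 3). *Arap2*, a GTPase-activating protein for Arf GTPases, had 0 counts in all Hox-WT libraries, with 60.4 ± 8.15 CPM in Hox-URE, with URE-AML at 12.8 ± 1.19. The 9 libraries fall into 3 lines, so these are not 9 independent points and r is a description without a p.

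Of the tested protein-coding genes around *Man1a* on chromosome 10, the 4 nearest on each side were read. In Hox-URE against Hox-WT 2 of these 8 rose, 5 fell and 1 was not called, where 21.3% of all genes rose and 15.9% fell. The nearest was *Mcm9*, a helicase gene 274 kb away, with 8.46 CPM in Hox-URE and 12.5 in Hox-WT, which gave -0.57 ± 0.17 on the log2 scale (SE, edgeR adjusted p = 0.0184) under the fold threshold. On that side the histone chaperone gene *Asf1a* fell by 1.47 ± 0.16 in Hox-URE (edgeR adjusted p = 3.11e-05), *Cep85l* fell, and *Nus1*, a subunit of the enzyme that makes the dolichol lipid on which N-glycans are built, fell by 1.05 ± 0.15 (adjusted p = 0.000185). On the other side the nearest tested gene was 1938 kb away. There *Tbc1d32* and *Hsf2* fell and *Msl3l2* and *Gja1* rose, both at low levels. *Gja1* had 0.434 CPM in Hox-URE, near the floor of 3 counts, and 0 in Hox-WT, and *Msl3l2* had 4.08 and 0.885 CPM. In URE-AML against Hox-WT *Msl3l2* and *Gja1* rose and the other 6 were not called, where 23.0% of all genes rose and 20.2% fell. There *Nus1* was 0.18 ± 0.14 (edgeR adjusted p = 0.299) and *Asf1a* -0.12 ± 0.15 (adjusted p = 0.538). In URE-AML against Hox-URE 6 of the 8 rose, all but *Mcm9* and *Msl3l2*, where 20.3% of all genes rose. The median log2 fold change of the 634 tested genes of chromosome 10 was -0.089 in Hox-URE and -0.024 in URE-AML, both against Hox-WT.

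The rest of the pathway was described by 10 lists of 129 genes, 128 of them in the table and 114 tested. Not every listed gene acts on N-glycans (*St3gal5* is an example). In Hox-URE against Hox-WT 26 of the 114 were higher (22.8%) and 9 lower (7.89%), with a median log2 fold change of 0.28, where the shares over all genes were 21.3% and 15.9%. Scaling by library size only turned this split to 21 and 12. For URE-AML against Hox-WT, 28 were higher (24.6%) and 19 lower (16.7%), with a median of -0.025, beside 23.0% and 20.2% of all genes. In URE-AML against Hox-URE 14 were higher (12.3%) and 31 lower (27.2%), with a median of -0.14, beside 20.3% and 22.4% of all genes, and library size only gave 19 and 27. With no fold threshold 65 of the 114 were called from Hox-WT to Hox-URE (adjusted p under 0.05), beside 6936 of all 13082 genes. From Hox-WT to URE-AML these were 68 and 7549. Counts at an unadjusted p under 0.05 below have no share over all genes beside them.

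**Figure D5:**
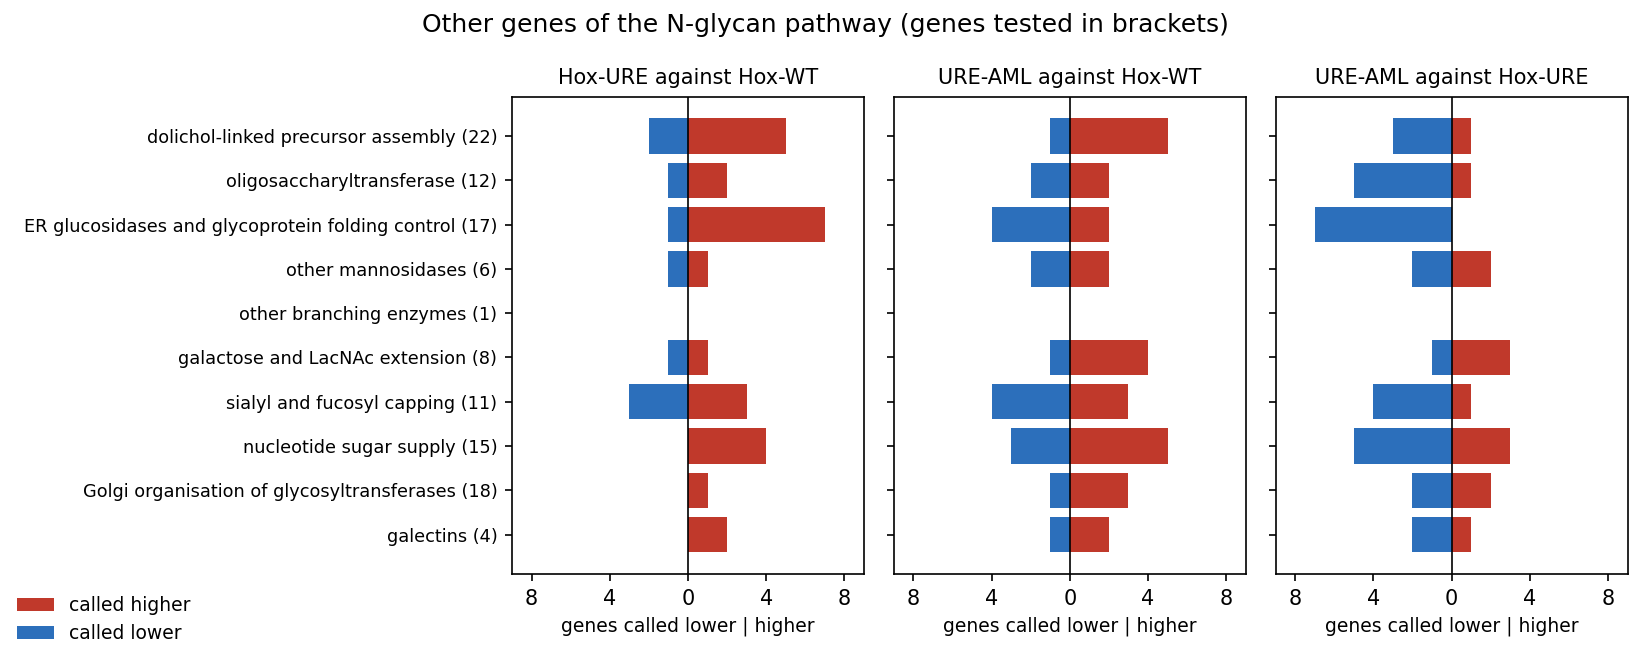
Number of genes of each list called higher (right of 0) or lower (left of 0) in each comparison, with the number tested in brackets. The ER glucosidase and folding control list has 7 higher and 1 lower from Hox-WT to Hox-URE, but 0 and 7 from Hox-URE to URE-AML.

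ER glucosidases and folding control genes act before or beside the Golgi mannosidases. In Hox-URE 7 of 17 were higher than in Hox-WT (41.2%) and 1 lower (5.88%), beside 21.3% and 15.9% of all genes, with a median log2 fold change of 0.18. *Edem1*, which helps to hand misfolded glycoproteins to degradation, had 142, 136 and 109 CPM in Hox-WT, against 658, 704 and 632 in Hox-URE and 237, 333 and 419.9 in URE-AML. It rose by 2.37 ± 0.19 on the log2 scale in Hox-URE (SE, edgeR adjusted p = 5.22e-06) and by 1.36 ± 0.19 in URE-AML (adjusted p = 0.000138). Its relative *Edem3* rose by 1.06 ± 0.10 in Hox-URE and fell by 1.34 ± 0.10 in URE-AML, both against Hox-WT (edgeR adjusted p = 1.3e-05 and 1.63e-06). The folding sensors *Uggt1* (587 against 286 CPM) and *Uggt2* (3.55 against 0.647 CPM) and the lectin chaperone *Calr* (5507 against 3189 CPM) were higher in Hox-URE as well. From Hox-WT to URE-AML 2 of the 17 rose (11.8%) and 4 fell (23.5%), beside 23.0% and 20.2% of all genes, with a median of -0.15. From Hox-URE to URE-AML 0 of the 17 rose by edgeR and 7 fell (41.2%), with 10 at an unadjusted p under 0.05 in either direction, and DESeq2 gave 0 and 7. Of all genes 20.3% rose and 22.4% fell in that comparison.

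Before that step, 5 of 22 genes of dolichol-linked precursor assembly rose and 2 fell from Hox-WT to Hox-URE, 5 and 1 from Hox-WT to URE-AML, and 1 and 3 from Hox-URE to URE-AML. The share that rose was 22.7% in both comparisons with Hox-WT, near the 21.3% and 23.0% of all genes, and the shares that fell (9.09% and 4.55%) were under the 15.9% and 20.2% of all genes. Between the URE lines 4.55% rose and 13.6% fell, where 20.3% and 22.4% of all genes did. *Alg12*, a mannosyltransferase, and *Gmppb*, which makes GDP-mannose, rose by 1.05 ± 0.14 and 1.05 ± 0.10 in Hox-URE (SE, edgeR adjusted p = 0.000166 and 1.71e-05). *Dpm1*, the catalytic subunit of dolichol-phosphate-mannose synthase, fell by 0.87 ± 0.15 in Hox-URE and by 0.93 ± 0.15 in URE-AML, both against Hox-WT (edgeR adjusted p = 0.000882 and 0.000437). Of 12 oligosaccharyltransferase genes 2 rose and 1 fell from Hox-WT to Hox-URE, 2 and 2 from Hox-WT to URE-AML, and 1 and 5 from Hox-URE to URE-AML. That is 16.7% higher in both comparisons with Hox-WT and 8.33% between the URE lines, each under the share of all genes, with 8.33%, 16.7% and 41.7% lower. *Rpn1*, a ribophorin subunit, had 1169 CPM in Hox-WT, followed by 1473 in Hox-URE, and URE-AML had 578, a fall of 1.35 ± 0.10 between the URE lines (edgeR adjusted p = 2.1e-06). Other mannosidases and glycan-releasing enzymes split, with 1 of 6 higher and 1 lower in Hox-URE, and with 2 up and 2 down in URE-AML against either Hox line (16.7% each way, then 33.3% each way). Lysosomal *Manba* fell in both URE lines and *Ngly1*, the enzyme that strips N-glycans from proteins bound for degradation, fell by 1.91 ± 0.20 in URE-AML against Hox-WT (edgeR adjusted p = 1.84e-05). Against Hox-WT *Man2b2* rose by 0.72 ± 0.25 in Hox-URE and by 0.76 ± 0.25 in URE-AML, and *Man2b1* rose by 1.32 ± 0.33 in URE-AML.

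After the branching step, of 5 other branching enzymes only *Mgat4b* was tested, and edgeR and DESeq2 called it in no comparison. Its log2 fold changes were -0.41, -0.29 and 0.12, with an unadjusted p under 0.05 in the comparisons with Hox-WT. Of 8 tested genes of galactose and LacNAc extension 1 rose and 1 fell from Hox-WT to Hox-URE, 4 and 1 from Hox-WT to URE-AML, and 3 and 1 from Hox-URE to URE-AML. The shares that rose were 12.5%, 50.0% and 37.5%, beside 21.3%, 23.0% and 20.3% of all genes, and 12.5% fell each time, beside 15.9%, 20.2% and 22.4%. *B3gnt2*, a main enzyme of poly-LacNAc synthesis, had 58.9, 65.2 and 48.1 CPM in Hox-WT, with 77.8, 70.8 and 55.3 in Hox-URE and 276, 383 and 297 in URE-AML. It rose in URE-AML by 2.47 ± 0.18 against Hox-WT (SE, edgeR adjusted p = 1.09e-06) and by 2.23 ± 0.17 against Hox-URE (adjusted p = 2.47e-06). The galactosyltransferases *Ggta1* and *B4galt1* rose against Hox-WT by 2.12 ± 0.10 and 1.09 ± 0.12 (edgeR adjusted p = 6.18e-08 and 3.05e-05).

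Of 11 capping enzymes 3 rose and 3 fell from Hox-WT to Hox-URE, 3 and 4 from Hox-WT to URE-AML, and 1 and 4 from Hox-URE to URE-AML. In that order 27.3%, 27.3% and 9.09% rose, beside 21.3%, 23.0% and 20.3% of all genes, while 27.3%, 36.4% and 36.4% fell, beside 15.9%, 20.2% and 22.4%. *St3gal5*, which makes the ganglioside GM3 and so acts on lipids rather than N-glycans, had 18.2, 17.4 and 15.1 CPM in Hox-WT, then 0.582, 1.49 and 1.17 in Hox-URE and 0 counts in URE-AML, a drop from Hox-WT of at least 129-fold. The sialyltransferase *St3gal2* rose by 3.83 ± 0.45 in Hox-URE and by 2.83 ± 0.44 in URE-AML against Hox-WT (SE, edgeR adjusted p = 6.59e-05 and 0.000303). Which glycans *St3gal2* caps in these lines was not measured, so its rise is not a reading of N-glycan capping. *St6gal1*, which caps N-glycans, rose by 2.46 ± 0.53 and 2.91 ± 0.53 from 1.04 CPM in Hox-WT (edgeR adjusted p = 0.00294 and 0.000872). *Fut8*, the core fucosyltransferase, had 301 CPM in Hox-WT, against 296 in Hox-URE, with URE-AML at 93.8, where it fell by 1.68 ± 0.19 (edgeR adjusted p = 3.36e-05).

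Of 15 tested genes of nucleotide sugar supply 4 rose and 0 fell from Hox-WT to Hox-URE by edgeR, with 10 at an unadjusted p under 0.05, and DESeq2 gave 4 and 0. From Hox-WT to URE-AML 5 rose and 3 fell, and from Hox-URE 3 rose and 5 fell. Shares that rose were 26.7%, 33.3% and 20.0% (all genes 21.3%, 23.0% and 20.3%), and shares that fell 0%, 20.0% and 33.3% (all genes 15.9%, 20.2% and 22.4%). *Gfpt1* and *Pgm3*, of the pathway to UDP-N-acetylglucosamine, the donor that the *Mgat* enzymes use, fell in URE-AML against Hox-WT by 0.94 ± 0.11 and 1.07 ± 0.09 (SE, edgeR adjusted p = 4.69e-05 and 5e-06). Of 18 genes of Golgi organisation 1 rose and 0 fell in Hox-URE by edgeR, with 10 at an unadjusted p under 0.05, and DESeq2 gave 1 and 0. In URE-AML 3 were higher and 1 lower against Hox-WT, and 2 and 2 against Hox-URE. The shares higher (5.56%, 16.7% and 11.1%) and lower (0%, 5.56% and 11.1%) were under those of all genes in each comparison.

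Of 4 tested galectins, which bind the chains that *Mgat5* branches carry, 2 rose and 0 fell in Hox-URE by edgeR, with 3 at an unadjusted p under 0.05, and DESeq2 gave 2 and 0. In URE-AML 2 were higher and 1 lower against Hox-WT, and 1 and 2 against Hox-URE. Over all genes 21.3% rose and 15.9% fell in Hox-URE, and in URE-AML 23.0% and 20.2% against Hox-WT and 20.3% and 22.4% against Hox-URE, and 4 galectins are few to set beside these. *Lgals3* had 0.112, 0.107 and 0.208 CPM in Hox-WT, followed by 16.0, 10.9 and 15.1 in Hox-URE and 134, 102 and 84.5 in URE-AML. Each line stood apart, and the level was near the floor of 3 counts in Hox-WT. *Lgals1* rose by 1.15 ± 0.17 in Hox-URE (SE, edgeR adjusted p = 0.000272), and *Lgals9* fell by 2.11 ± 0.24 in URE-AML (adjusted p = 3.74e-05), both against Hox-WT.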

How the data were processed

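Stranded poly-A libraries of 3 mouse cell lines were sequenced, 3 for each. Reads were quantified by the authors with salmon and summed to genes with tximport. The deposited values are estimated counts per gene in whole numbers without scaling to library size. The submitters' processing notes name GRCm38. The transcriptome release, the strand setting and any scaling for transcript length are not given in the sources used here; a count may therefore move with transcript use.

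Groups were taken from the labels. The enzymes and gene lists were chosen with earlier results of these data known. Counts were fitted with edgeR 4.0.16 (R 4.3.3) in 1 quasi-likelihood model of all 9 libraries, with TMM factors of 0.938 to 1.04 and a common biological coefficient of variation of 0.173. The filter was filterByExpr (minimum count 10). Two-sided quasi-likelihood F tests were adjusted by Benjamini-Hochberg over 13082 genes, and calls needed an adjusted p under 0.05 and a fold over 1.5, as in the study. Each SE was obtained from the log2 fold change and its F statistic. Folds against a line at 0 use a floor of 3 counts per library, 0.104 to 0.153 CPM, which covers counting error only.

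Positions, and the length of the longest basic coding transcript per gene for values per kb, came from GENCODE M21 (GRCm38), which held 54094 of the 54347 identifiers. Promoters were from RefSeq (GRCm38.p6). Likeness to *Man1a* was Pearson's r of log2(CPM + 1), and symbols of the forms Gm and digits, -ps and Rik were left out before genes were named by it. Coding sequences were aligned with Biopython 1.88. Genes named were the 10 enzymes, *Spi1*, up to 4 called genes of each pathway list with the largest change per comparison, the 5 genes most like *Man1a*, the 4 nearest tested genes on each side of it, and markers of 8 cell kinds. *Mgat4b*, *Hoxb8* and the overlapping genes were named after their values were seen. The code was tested on simulated data. Alternatives included other scalings and filters, DESeq2 1.42.0, glmTreat, the replicate number as a block and leaving out each library. A share per kb of coding length was added after seeing the data.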

Additional observations from a re-analysis of the deposited data

How the results depend on the processing

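The counts of the 9 enzymes called were 2, 5 and 5 for Hox-URE against Hox-WT, URE-AML against Hox-WT and URE-AML against Hox-URE. They were the same under 3 other scalings, no filter, at least 10 counts in every library, DESeq2 and only the 6 libraries compared. With no fold change threshold they were 4, 7 and 7, and with glmTreat, a test against 1.5-fold, they were 2, 3 and 4, the last without *Mgat1* (adjusted p = 0.156) and the middle without *Man1a2* (0.393) and *Man1c1* (0.474). Of all 13082 tested genes 6936 and 7549 were called in the first 2 comparisons with no fold change threshold, and 3367 and 4287 with glmTreat. Leaving out each library gave 2 enzymes for the first comparison, 4 to 5 for the second and 5 for the last.

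The replicate number as a block gave 2, 5 and 5 enzymes. Deviations of libraries with the same number correlated by 0.271, 0.0995 and 0.174 between the Hox lines and by 0.01 to 0.0923 in the other pairs of lines, all above 0. The labels do not say whether equal numbers mark libraries made together, so pairing could not be decided, and the main fit did not use it. With the block, *Mgat4a* between the Hox lines had an edgeR adjusted p of 0.000133, against 0.00213 without it.

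Scaling by library size only moved the median of all genes by 0.109 for URE-AML against Hox-URE and turned the small differences of *Man2a1* there to 0.088 and of *Man1b1* between the Hox lines to -0.054. *Man2a1* also changed sign without Hox-URE library 2 (0.049), URE-AML library 1 (0.005) or URE-AML library 3 (0.027), with a lowest value of -0.10 without URE-AML library 2. *Mgat4a* in URE-AML against Hox-WT changed sign without Hox-WT library 3 (-0.065), and its highest value was 0.50 without Hox-WT library 1. The cause was not tested. None of these had passed the test.

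Of the 114 pathway genes tested, 65 were called with no fold change threshold and 19 with glmTreat between the Hox lines (35 with the thresholds of the report). Of all 13082 tested genes 6936 and 3367 were called in these 2 ways. Between the URE lines 71 pathway genes were called with no fold change threshold (45 with the thresholds of the report). Requiring 10 counts in every library left 3200, 3602 and 3553 of all genes called, with fewer genes tested, against 4873, 5648 and 5591. Without *Man1b1* in the sum, *Man1a* made up 5.26%, 68.4% and 37.1% of class I transcripts in the order Hox-WT, Hox-URE, URE-AML, a smaller sum by construction. Per coding length the shares were 2.98%, 55.7% and 21.8%, chosen after seeing the data.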
